A study of Mus musculus with 6 samples.

Results

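Matrix metalloproteinases (gene names Mmp), ADAMs (Adam), ADAMTS proteases (Adamts) and their inhibitors, the TIMPs (Timp), were read from RNA-seq of the mouse gastric adenocarcinoma lines MPC and MPC-PTX. Members were all genes of the count table named Mmp, Timp, Adam or Adamts followed by a number, with at most 1 letter after it. This gave 80 of the 21959 genes of the table, made up of 23 Mmp, 4 Timp, 34 Adam and 19 Adamts genes. The filter on low counts kept 25 of these members for testing, 25 others had no count in any of the 6 libraries, and the remaining 30 had too few counts to be tested.

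All 4 families work outside the cell or at its surface. MMPs are zinc proteases that cut collagens, laminins, proteoglycans and other proteins around the cell. Most are secreted as inactive proenzymes, while the membrane-type MMPs are held at the surface and are cut into their active form by furin-like proteases on the way there. ADAMs are membrane proteins of which many, ADAM10 and ADAM17 above all, shed growth factors, cytokines and receptors from the cell surface. ADAMTSs are secreted relatives that cut proteoglycans such as aggrecan and versican, procollagens or von Willebrand factor. TIMPs bind the active site of MMPs, and some also block ADAMs and ADAMTSs. In carcinomas, many MMPs are made by stromal cells and leukocytes as well as by the tumour cells.

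MPC is a line of mouse gastric adenocarcinoma with the genotype CDH1-/-;Trp53-/-, and MPC-PTX was raised from it by repeated cycles of paclitaxel (PTX), a drug that stabilises microtubules. Both lines carry the 2 deletions. These were induced by tamoxifen in gastric organoids from a C57BL/6 J mouse with floxed Trp53 and floxed Cdh1 that carried the Mist1-CreER driver. The organoids were then grown as subcutaneous tumours in a BALB/c nude mouse. MPC served as the control, and each line went through monoclonal selection, so that 1 clone stands for each state. Whether PTX was in the medium at harvest, and whether the 3 replicates of a line were separate cultures, is not given in the sources used here, so p-values measure only the spread between these libraries, which may be technical. The labels give the same batch number to all 6 libraries. RNA of both deleted genes was still counted: Cdh1 had 136, 132 and 135 CPM in MPC and 131, 136 and 132 CPM in MPC-PTX, and Trp53 had 98, 63 and 120 counts in MPC and 142, 130 and 111 in MPC-PTX. Counts summed over a whole gene cannot show which exons are lost, so they do not check the genotype.

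The 6 libraries held 16574580 to 23148182 counts, with 13897 to 14295 genes detected. The MPC libraries varied far more than the MPC-PTX libraries, with a biological coefficient of variation of 17.9% against 3.01%. MPC replicate 3 stood apart from the other MPC libraries, with a chi-square per gene of 61.1 against replicate 1 and 32.4 against replicate 2, where replicates 1 and 2 differed by 15.0. Between the lines, this value ran from 58.7 (MPC replicate 3 against MPC-PTX replicate 3) to 79.7 (MPC replicate 2 against MPC-PTX replicate 2). Replicates 1 and 3 of MPC were thus as far apart as some libraries of different lines. Results that rest on MPC replicate 3 are therefore given with and without it. All 7 epithelial markers (Epcam, Krt8, Krt18, Krt19, Krt7, Cldn4 and Cldn7) were expressed, with a summed level of 9400 to 10888 CPM (read counts scaled by library size and TMM factor) in MPC and of 5678 to 5866 in MPC-PTX, and all 7 were lower in MPC-PTX. The part of this shift in the results below was not tested, and in bulk RNA fewer cells of a type and less RNA per cell cannot be told apart. Fibroblast markers summed to 9.88 to 10.9 CPM in MPC and 8.63 to 10.0 in MPC-PTX, endothelial markers to 3.40 to 4.83 and 3.07 to 3.39, and leukocyte markers to 0.309 to 0.850 and 0.726 to 0.902.

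Of the 25 tested members, 7 rose and 4 fell in MPC-PTX. The test was the quasi-likelihood test of edgeR, its p-values were adjusted over all genes by the Benjamini-Hochberg method (edgeR adjusted p from here on), and the threshold was 0.05. Values in parentheses after a log2 fold change are its standard error (SE) and that p. This is 44.0% of the tested members, where 29.7% of all 11795 tested genes were called, 14.1% as higher and 15.6% as lower. The members that rose were Adamts1, Adamts5, Adam9, Adam15, Adam22, Mmp19 and Timp1, and those that fell were Mmp10, Mmp15, Mmp24 and Adam8. The methods of the study used another rule, a log2 fold change beyond 1 in either direction and an unadjusted p under 0.05. By that rule, used here on the edgeR fit where the study used DESeq, 5 members were higher and 3 lower. Of all genes, 8.11% were called by it, 3.77% as higher and 4.34% as lower. Mmp28 was called higher by it but did not pass by adjusted p. On a DESeq2 fit, the rule called 4 members higher and 3 lower, and the share of all genes by the rule was not taken there. The median log2 fold change was 0.08 over the tested members and 0.04 over all tested genes. Among tested members 7 (Adam1a, Adam4, Adamts5, Mmp10, Mmp19, Mmp23 and Mmp28) reached the filter's level in every library of only 1 line, and such a gene could pass the filter through that line alone. Of these, Adamts5, Mmp19 and Mmp28 were among the 5 higher and Mmp10 among the 3 lower by the rule of the study. With at least 10 counts in every library, that rule called 2 members higher and 2 lower. By adjusted p, the same filter tested 18 members, of which 5 rose and 3 fell, with 11.3% and 15.6% of all genes. Without MPC replicate 3, 11 members rose and 6 fell of 24 tested, while the share of all genes called went from 29.7% to 52.5%. Without MPC-PTX replicate 2 or 3, 4 members rose and 4 fell, with 16.0% or 16.2% of all genes called.

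**Figure D1:**
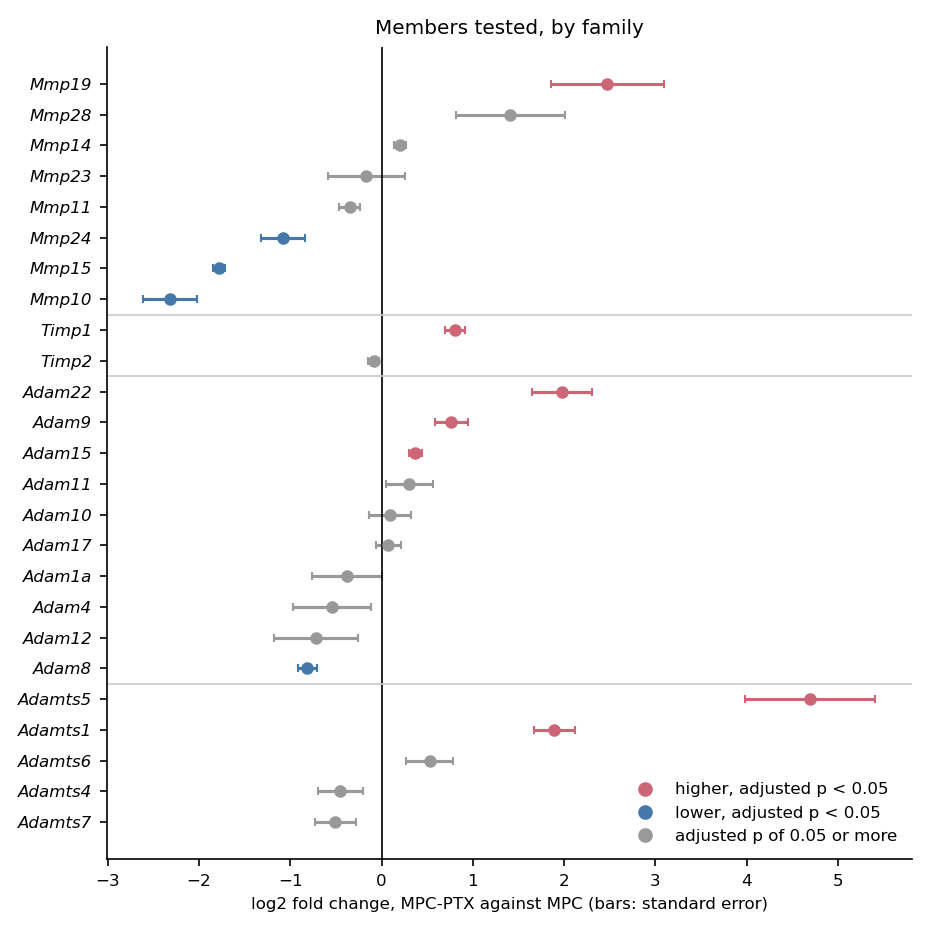
Fold change (log2) of MPC-PTX against MPC for the 25 tested members, grouped by family, with bars of 1 standard error (SE); red points had a higher and blue points a lower level in MPC-PTX at an edgeR adjusted p below 0.05, and grey points did not pass. Adamts5 lies farthest to the right at 4.70 and Mmp10 farthest to the left at -2.32.

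The start regions of 4 of these genes are shown because their differences carry most of the levels described below or, for Mmp10, because of the motifs it held. Each is the 250 bases before the RefSeq start on GRCm38.p6, 5' to 3' on the gene's strand. Capitals mark matches, on either strand, to the AP-1 motif TGANTCA, the ETS motif AGGAAG and the TATA box TATAAA, none of which overlap each other here. Mmp10 lies at chr9:7502092-7502341 (+), Mmp15 at chr8:95352046-95352295 (+), Timp1 at chrX:20869916-20870165 (+) and Adamts1 at chr16:85803114-85803363 (-).
Mmp10: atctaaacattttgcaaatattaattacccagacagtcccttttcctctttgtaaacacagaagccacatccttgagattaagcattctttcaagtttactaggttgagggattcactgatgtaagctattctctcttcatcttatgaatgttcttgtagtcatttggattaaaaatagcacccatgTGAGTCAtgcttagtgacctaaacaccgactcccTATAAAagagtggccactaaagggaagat
Mmp15: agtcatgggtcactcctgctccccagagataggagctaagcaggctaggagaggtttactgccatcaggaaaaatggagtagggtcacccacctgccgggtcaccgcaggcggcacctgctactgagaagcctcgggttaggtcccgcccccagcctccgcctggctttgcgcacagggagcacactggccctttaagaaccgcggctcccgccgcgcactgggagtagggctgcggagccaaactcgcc
Timp1: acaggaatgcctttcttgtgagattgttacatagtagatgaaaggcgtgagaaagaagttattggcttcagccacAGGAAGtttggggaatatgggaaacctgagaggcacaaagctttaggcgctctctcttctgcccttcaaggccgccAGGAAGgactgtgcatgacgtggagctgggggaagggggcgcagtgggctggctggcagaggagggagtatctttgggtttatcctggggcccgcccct
Adamts1: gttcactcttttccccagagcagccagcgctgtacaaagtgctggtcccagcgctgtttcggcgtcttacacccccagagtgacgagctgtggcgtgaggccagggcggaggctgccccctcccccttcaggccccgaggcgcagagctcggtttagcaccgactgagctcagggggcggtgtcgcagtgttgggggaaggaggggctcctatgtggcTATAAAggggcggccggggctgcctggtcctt

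The Mmp10 region held an AP-1 match 63 bases and a TATA box 29 bases before the start, and its GC content was 37.2%. Mmp15 held none of the motifs in 63.6% GC. The Timp1 region had 2 ETS matches, 175 and 99 bases before the start, and Adamts1 had a TATA box at 32 bases. RefSeq regions were at hand for 50 members and for 8 of the 11 that passed the test. Of those 8, 1 held the AP-1 motif, 1 the ETS motif and 2 the TATA box, where 6.75%, 29.5% and 12.4% of all 32851 such regions did, and the median GC content over all regions was 52.4%. These matches are descriptions of the letters and not of bound sites.

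Membrane-anchored MMPs held the largest amount of Mmp RNA, and 2 of the 4 tested fell, where 15.6% of all tested genes did. Mmp15, which encodes MT2-MMP, lies at chr8:95352268-95375080 in the GENCODE M21 annotation of GRCm38. Its level was 196, 214 and 194 CPM in the MPC libraries and 60.6, 58.5 and 57.0 CPM in the MPC-PTX libraries. The 2 lines were far apart, with little spread in either. Mmp15 fell by 1.78 on the log2 scale (SE 0.07, edgeR adjusted p = 1.01e-05), which is 3.43-fold lower. Mmp24 (chr2:155775342-155818366), which encodes MT5-MMP, best known from the nervous system, had 3.08, 3.35 and 2.69 CPM in MPC and 1.03, 1.76 and 1.54 CPM in MPC-PTX. It fell by 1.08 on the log2 scale (SE 0.24, edgeR adjusted p = 0.0137). BC029722, a gene on the other strand, overlaps Mmp24 and had 1739 counts in MPC and 1436 in MPC-PTX, and since the use of strand in counting is not given in the sources used here, reads of the pair cannot be told apart. The call for Mmp24 was lost without MPC replicate 2 (edgeR adjusted p = 0.0567).

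Mmp14, which encodes MT1-MMP, the collagenase of the cell surface and an activator of pro-MMP2, did not pass the test. It had 83.8, 92.0 and 91.1 CPM in MPC and 103, 102 and 102 CPM in MPC-PTX. All 3 MPC-PTX libraries lay above the MPC libraries. Such a gap was common, since the lines did not overlap for 46.9% of all tested genes (24.2% with MPC-PTX above, 22.7% with it below) and for 13 of the 25 tested members (8 above, 5 below). The log2 fold change of 0.20 (SE 0.06) missed the threshold with an edgeR adjusted p of 0.0508. Over the alternative settings, that p ran from 0.0334 to 0.185. Mmp23, the fourth tested member of this group, had a log2 fold change of -0.16 (edgeR adjusted p = 0.793). The 3 untested membrane-anchored genes, Mmp16, Mmp17 and Mmp25, had at most 6 counts in a library.

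Among the stromelysins, Mmp10 and Mmp11 were tested. Mmp10 (chr9:7502352-7510240), which encodes stromelysin-2, a protease of laminin and proteoglycans and an activator of procollagenases, had 25, 23 and 24 counts in MPC and 5, 6 and 4 counts in MPC-PTX. These were 1.33, 1.19 and 1.15 CPM against 0.214, 0.270 and 0.238 CPM. No library of one line came near those of the other, though the level was low in both. Mmp10 fell by 2.32 on the log2 scale (SE 0.29, edgeR adjusted p = 0.00133). Mmp11, stromelysin-3, was 26.0, 28.3 and 24.5 CPM in MPC and 22.9, 18.0 and 20.97 CPM in MPC-PTX, and its log2 fold change of -0.35 (SE 0.11) had an edgeR adjusted p of 0.0555. The lines did not overlap for Mmp11, and the adjusted p ran from 0.00721 to 0.199 over the alternatives.

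One other secreted MMP rose. Mmp19 (chr10:128790910-128800824), a secreted MMP that cuts basement membrane proteins, had 4, 4 and 0 counts in MPC and 21, 15 and 13 counts in MPC-PTX. All libraries of MPC-PTX were higher, at a level under 1 CPM. Its log2 fold change was 2.47 (SE 0.62, edgeR adjusted p = 0.0214). The call rests on few counts, and it was lost without MPC replicate 2 or without any 1 of the MPC-PTX libraries (edgeR adjusted p from 0.0555 to 0.0828). Without MPC replicate 3, the library with 0 counts, the value was 1.82 (edgeR adjusted p = 0.011). Tmem198b, on the other strand, overlaps Mmp19 and had 183 counts in MPC and 177 in MPC-PTX. Mmp28, epilysin, had 0.531, 0.206 and 0.0961 CPM in MPC and 0.513, 1.08 and 0.594 CPM in MPC-PTX, with overlapping lines (log2 fold change 1.41, SE 0.60, edgeR adjusted p = 0.119).

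The classical secreted MMPs were nearly absent from both lines. Of the 4 collagenases 3 had no count in any library, and the exception, Mmp13, had 9, 7 and 11 counts in MPC and 4, 3 and 5 in MPC-PTX. The gelatinase Mmp2 had 1, 1 and 0 counts in MPC and 0, 1 and 3 in MPC-PTX. The other gelatinase, Mmp9, had 8, 5 and 1 counts in MPC and 0, 4 and 1 in MPC-PTX. Mmp7, matrilysin, an MMP typical of epithelial tumours, had 2, 1 and 0 counts in MPC and 0, 0 and 1 in MPC-PTX. When genes with low counts were kept in the fit, Mmp13 had a log2 fold change of -1.21 (SE 0.53, unadjusted p = 0.0447, edgeR adjusted p = 0.142), and Mmp2, Mmp7 and Mmp9 had edgeR adjusted p of 0.705, 0.558 and 0.345. The counts of Mmp13 did not overlap between the lines, though its adjusted p missed the threshold, and for Mmp2, Mmp7 and Mmp9 no difference was detectable at this depth.

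Timp1 rose, while Timp2, which was at a higher level, did not pass the test. Timp1 (chrX:20870166-20874735), the inducible secreted inhibitor of most MMPs and of ADAM10, had 30.0, 25.0 and 23.5 CPM in MPC and 45.4, 44.5 and 47.2 CPM in MPC-PTX. Every MPC-PTX library was above the highest MPC library. Timp1 rose by 0.81 on the log2 scale (SE 0.11, edgeR adjusted p = 0.00161), a 1.75-fold rise. Timp1 overlaps Syn1, which is on the other strand and had 28 counts in MPC and 27 in MPC-PTX. Timp2, which inhibits MMPs and takes part in the activation of pro-MMP2 by MT1-MMP, had 521, 498 and 468 CPM in MPC and 469, 462 and 469 CPM in MPC-PTX. Its lines overlapped, with a log2 fold change of -0.09 (SE 0.06, edgeR adjusted p = 0.321). Without MPC replicate 3 the value was -0.18 (edgeR adjusted p = 0.00397).

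Timp3 and Timp4 were hardly detected. Timp3, the inhibitor that binds to the matrix and blocks ADAM17 and aggrecanases, had 4, 4 and 2 counts in MPC and 8, 10 and 9 in MPC-PTX. Timp4 had 0, 0 and 3 counts in MPC and 1, 2 and 4 in MPC-PTX. In the fit without a filter, Timp3 had a log2 fold change of 1.32 (SE 0.56, edgeR adjusted p = 0.125) and Timp4 of 1.08 (SE 1.22, edgeR adjusted p = 0.554).

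Adding up levels per kilobase of exon shows how these differences weigh. Summed over the 23 Mmp genes, the level was 62.3, 67.2 and 61.9 CPM per kb in MPC and 37.8, 35.8 and 36.9 CPM per kb in MPC-PTX. Mmp15 made up 58.4% ± 0.351 (SD, n = 3) of this sum in MPC and 29.5% ± 0.848 (SD, n = 3) in MPC-PTX, and Mmp14 made up 23.4% ± 1.12 and 46.7% ± 1.08. On this scale Mmp15 stood at 2.50 ± 0.124 times the level of Mmp14 in MPC and at 0.632 ± 0.0177 times in MPC-PTX, so the order of the 2 membrane-type genes turned. The summed Timp level was 168, 156 and 147 CPM per kb in MPC and 172, 169 and 174 CPM per kb in MPC-PTX. Timp1 held 18.8% ± 1.22 of the Timp sum in MPC and 30.1% ± 0.480 in MPC-PTX, with nearly all of the rest from Timp2. The ratio of the Mmp sum to the Timp sum was 0.372, 0.431 and 0.422 in MPC and 0.221, 0.212 and 0.213 in MPC-PTX. No library of one line reached the range of the other for these ratios. For the ratio of Mmp15 to Mmp14, an exact two-sided permutation test gave p = 0.1, the smallest that 3 against 3 libraries allow, and the sums over members are given without a p. They compare RNA only and say nothing of the activity of the proteins.

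**Figure D2:**
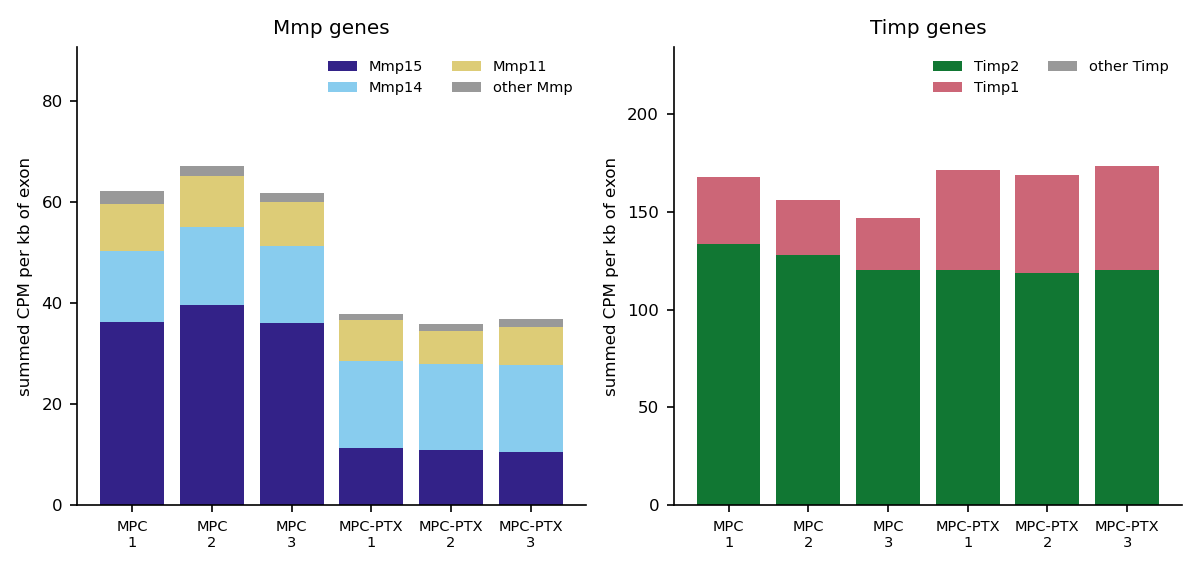
Summed level of the Mmp genes (left) and Timp genes (right) in each of the 6 libraries, in CPM per kb of exon, split by gene. The Mmp bars reach 62.3, 67.2 and 61.9 in MPC and 37.8, 35.8 and 36.9 in MPC-PTX, with the difference in the Mmp15 part, while Timp1 takes a larger part of the Timp bars in MPC-PTX.

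Ordered by level per kilobase, Timp2 came first in both lines, at 127 ± 6.86 CPM per kb (SD, n = 3) in MPC and 120 ± 1.07 in MPC-PTX. In MPC it was followed by Mmp15 (37.3), Timp1 (29.5), Adam10 (25.2), Adam9 (19.9), Mmp14 (14.9), Adam17 (10.1), Mmp11 (9.45), Adam15 (5.25), Adam8 (5.24), Adamts1 (4.88) and Adamts6 (1.28). The libraries of Timp1 and Adam10, Adam10 and Adam9, Adam17 and Mmp11, Adam15 and Adam8, and Adam8 and Adamts1 overlapped in range. For 4 of these pairs the order also changed between the MPC libraries, while Adam10 was above Adam9 in all 3. In MPC-PTX the order after Timp2 was Timp1 (51.5), Adam9 (33.7), Adam10 (26.9), Adamts1 (18.1), Mmp14 (17.2), Mmp15 (10.9), Adam17 (10.7), Mmp11 (7.42), Adam15 (6.78), Adam8 (2.98) and Adamts6 (1.84). There the overlapping neighbours were Adamts1 and Mmp14, Mmp15 and Adam17, and Mmp11 and Adam15. The same 12 members thus led in both lines, and Mmp15 went from rank 2 to rank 7 while Adamts1 went from rank 11 to rank 5.

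Among the ADAMs of somatic tissues, 2 of 6 tested rose and 1 fell, beside 14.1% and 15.6% of all tested genes. Adam9 (chr8:24949611-25016927), a widely expressed sheddase with links to cell adhesion through integrins, had 66.6, 70.6 and 108 CPM in MPC and 135, 139 and 142 CPM in MPC-PTX. MPC replicate 3 lay between the 2 other MPC libraries and the MPC-PTX libraries. The log2 fold change was 0.76 (SE 0.18, edgeR adjusted p = 0.0201), and 0.96 without MPC replicate 3 (edgeR adjusted p = 1.78e-06). With MPC replicate 2 or any 1 of the MPC-PTX libraries left out, the edgeR adjusted p was 0.0614 to 0.0724. Adam15 (chr3:89338542-89349996), metargidin, an ADAM with an integrin-binding RGD motif in human, had 32.3, 32.9 and 31.5 CPM in MPC and 40.2, 42.9 and 41.9 CPM in MPC-PTX. Its rise was small but well outside the spread, with a log2 fold change of 0.37 (SE 0.07, edgeR adjusted p = 0.00857). Without MPC-PTX replicate 2 or 3 that p was 0.0572 or 0.0502.

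Adam8 (chr7:139978932-139992562), an ADAM best known from leukocytes and also made by carcinoma cells, had 25.2, 25.2 and 22.6 CPM in MPC and 15.3, 12.7 and 13.5 CPM in MPC-PTX. The highest MPC-PTX library stayed below the lowest MPC library. Adam8 fell by 0.81 on the log2 scale (SE 0.11, edgeR adjusted p = 0.00151). Leukocyte markers were near 0 in both lines, at less than 1 CPM in sum. Which cells made the Adam8 RNA was not tested.

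The main sheddases did not pass the test. Adam10, which cuts Notch and cadherins, had 85.5, 115 and 171 CPM in MPC and 131, 129 and 137 CPM in MPC-PTX. Adam17, which releases TNF and ligands of the EGF receptor, had 60.2, 68.2 and 88.5 CPM in MPC and 74.8, 77.6 and 76.2 CPM in MPC-PTX. For both genes, the MPC libraries lay on either side of the MPC-PTX libraries, with MPC replicate 3 highest. The log2 fold changes were 0.10 (SE 0.23, edgeR adjusted p = 0.782) for Adam10 and 0.08 (SE 0.14, edgeR adjusted p = 0.708) for Adam17. Without MPC replicate 3 they were 0.35 (edgeR adjusted p = 0.0368) and 0.19 (edgeR adjusted p = 0.0472), and without MPC replicate 1 they were -0.11 and -0.04, so neither direction nor call is settled by these libraries. Per kilobase, Adam9 was at 0.806 ± 0.108 (SD, n = 3) times the level of Adam10 in MPC and at 1.25 ± 0.0327 times in MPC-PTX. Adam17 overlaps Iah1 on the other strand, which had 1210 counts in MPC and 1444 in MPC-PTX. Adam12, the other tested gene of this group, had a log2 fold change of -0.72 (edgeR adjusted p = 0.279).

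Adam22 belongs to the ADAMs that lack an active site and serves in the nervous system as a receptor of LGI proteins. It lies at chr5:8072352-8368160. It had 15, 11 and 33 counts in MPC and 94, 83 and 68 counts in MPC-PTX, or 0.797, 0.567 and 1.59 CPM against 4.02, 3.74 and 4.04 CPM. The lines stood apart by more than the spread of either. The log2 fold change was 1.98 (SE 0.32, edgeR adjusted p = 0.00419). Adam11, of the same kind, had a log2 fold change of 0.31 (edgeR adjusted p = 0.406).

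The 22 ADAMs that are named from testis or epididymis were nearly silent, and 13 of them had no count in any library. Adam1a and Adam4 were the 2 that could be tested, with log2 fold changes of -0.38 (edgeR adjusted p = 0.487) and -0.54 (edgeR adjusted p = 0.373). Adam5, not tested, had 3, 7 and 16 counts in MPC and 7, 10 and 3 in MPC-PTX. Several of these genes have close copies, and how reads that fit more than 1 place were counted is not given in the sources used here.

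Of the Adamts genes that act on proteoglycans, 2 of 3 tested rose, where 14.1% of all tested genes did, and they are neighbours on chromosome 16. Of these 2, Adamts5 reached the filter's level in every library of MPC-PTX only, the line in which it was high. Adamts1 (chr16:85793827-85803113), a protease of aggrecan and versican that also binds VEGF, had 35.3, 18.2 and 24.1 CPM in MPC and 90.2, 98.9 and 99.1 CPM in MPC-PTX. The lowest MPC-PTX library was far above the highest MPC library. Adamts1 rose by 1.89 on the log2 scale (SE 0.22, edgeR adjusted p = 0.00133), a 3.71-fold rise. Adamts5 (chr16:85856173-85901828), the main aggrecanase of mouse cartilage, had 0, 2 and 0 counts in MPC and 18, 26 and 20 counts in MPC-PTX. From these sums, the ratio per total count was 31.1 with an exact 95% interval of 8.26 to 262 that covers counting error only. The fitted log2 fold change was 4.70 (SE 0.71, edgeR adjusted p = 0.00302), a value that depends on the prior count with so few counts in MPC. Without MPC replicate 2, which leaves MPC with no count, it was 7.41, and it lay between 4.10 and 4.90 under every other alternative in which it was fitted. Adamts4, the third tested gene of this group, had a log2 fold change of -0.45 (edgeR adjusted p = 0.21). Adamts9 had 6, 5 and 12 counts in MPC and 4, 1 and 0 in MPC-PTX, with an edgeR adjusted p of 0.0783 in the fit without a filter.

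Adamts6, a protease linked to fibrillin microfibrils, was the other Adamts gene at 10 CPM or more. It had 6.75, 9.28 and 13.8 CPM in MPC and 12.7, 16.6 and 13.7 CPM in MPC-PTX. MPC replicate 3 lay among the MPC-PTX libraries and the 2 other MPC libraries below them. The log2 fold change was 0.53 (SE 0.26, edgeR adjusted p = 0.171), and 0.79 without MPC replicate 3 (edgeR adjusted p = 0.00372). Adamts7 had a log2 fold change of -0.51 (edgeR adjusted p = 0.136). None of the 3 procollagen-processing Adamts genes could be tested, and 2 of them had no count in any library. Summed over the family, the level was 8.25, 5.59 and 7.04 CPM per kb in MPC and 19.3, 21.4 and 21.2 CPM per kb in MPC-PTX, and Adamts1 made up 68.9% ± 10.3 (SD, n = 3) and 87.9% ± 0.585 of it.

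**Figure D3:**
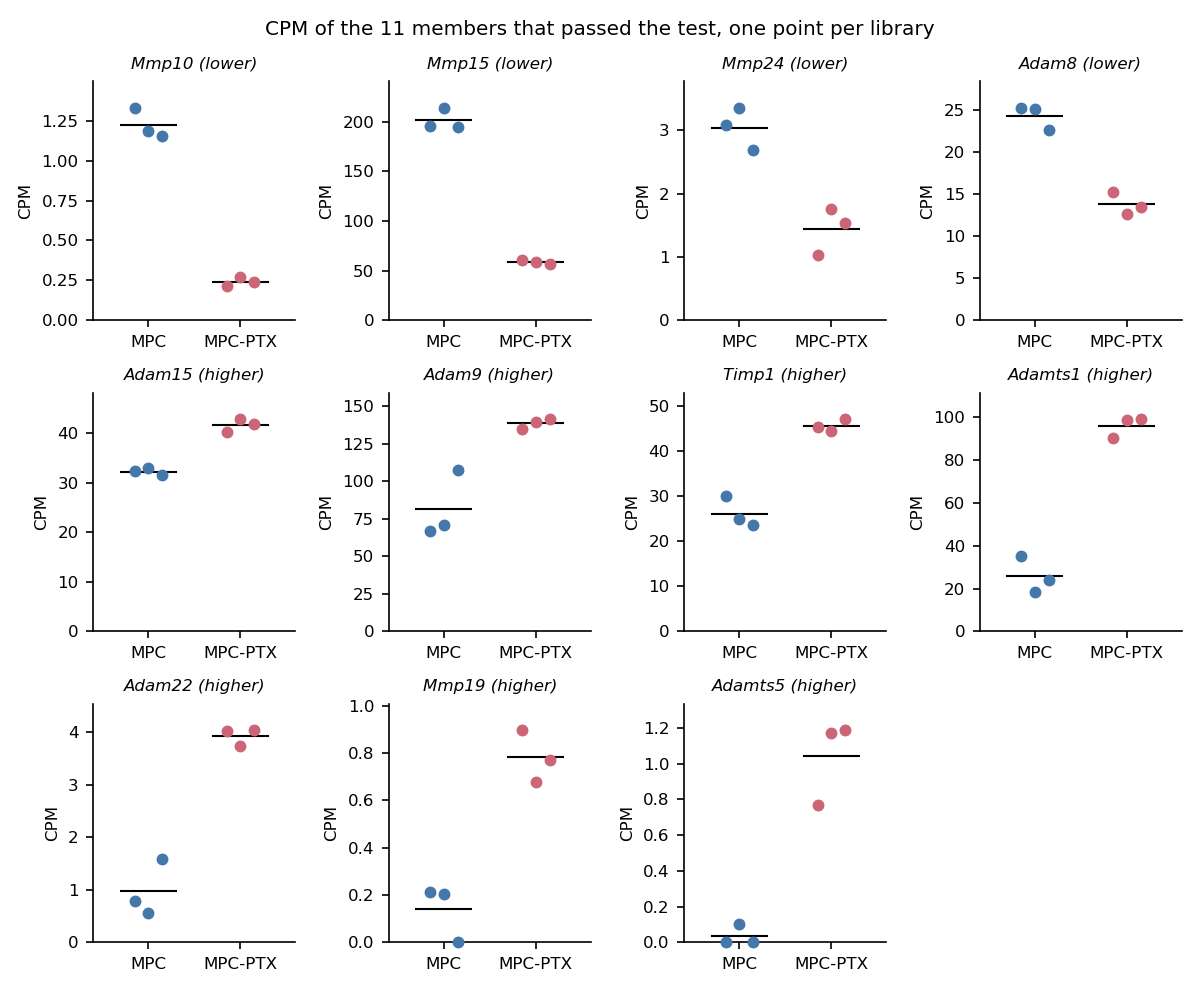
CPM of the 11 members that passed the test in each of the 6 libraries (blue, MPC; red, MPC-PTX), with a line at the mean of each line's 3 libraries and every axis starting at 0. For all 11 genes, which were chosen by the test on these values, the 2 lines do not overlap. This was so for 46.9% of all tested genes. For Adam9 MPC replicate 3 is nearest to the MPC-PTX libraries.

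Among the other untested members, Adam33 had 9, 3 and 12 counts in MPC and 10, 8 and 3 in MPC-PTX. Adam28, chosen after its values were seen, had 0, 7 and 9 counts in MPC and 0 in all 3 MPC-PTX libraries. With 3 counts put in place of the 0 in the MPC-PTX line, the ratio per total count of MPC to MPC-PTX was 5.49. That value takes the MPC sum as exact, and MPC replicate 1 also had 0 counts, so it is not a lower bound. The edgeR adjusted p of Adam28 in the fit without a filter was 0.0787. That fit took in all 55 members with a count. None of the 30 that the filter had left out had an edgeR adjusted p below 0.05 in it, while 3 higher and 3 lower ones had an unadjusted p below 0.05.

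The genes around the called members were set beside them. Within 1 Mb of Adam22, the 12 tested genes were all above 0 in log2 fold change, their median was 1.64, and 11 were called higher. They included Abcb1a (2.19) and Abcb1b (2.07), the P-glycoprotein genes that export PTX, which were chosen here after their values were seen. Counts of neighbours stand beside 14.1% of all tested genes called higher and 15.6% called lower. Around Adam9, 12 of 17 tested genes were called higher and 3 lower, with a median log2 fold change of 0.34. Mmp15 had 29 tested neighbours, of which 8 were called higher and 6 lower, with a median of 0.17 where Mmp15 itself was at -1.78. For Mmp10, none of 8 tested neighbours was called by edgeR or by DESeq2, and 1 had an unadjusted p below 0.05. The other Mmp genes in this window (Mmp1a, Mmp1b, Mmp3, Mmp7, Mmp8, Mmp12, Mmp13, Mmp20 and Mmp27) failed the filter on low counts. They are therefore not among these neighbours, and whether they moved with Mmp10 was not tested. Mmp19 had 19 of 41 neighbours called lower, against its own rise, and 2 called higher. Adam15, which also rose, had 17 of 63 neighbours called lower and 4 higher. Near Mmp24, 5 of 32 were called lower and 1 higher, near Adam8, 2 of 18 lower and 4 higher, and near Timp1, 1 of 15 lower and 2 higher. Adamts1 and Adamts5 are each other's neighbours, and of the 3 other genes near Adamts1 none was called higher and 2 were called lower. What moves neighbouring genes together was not tested.

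**Figure D4:**
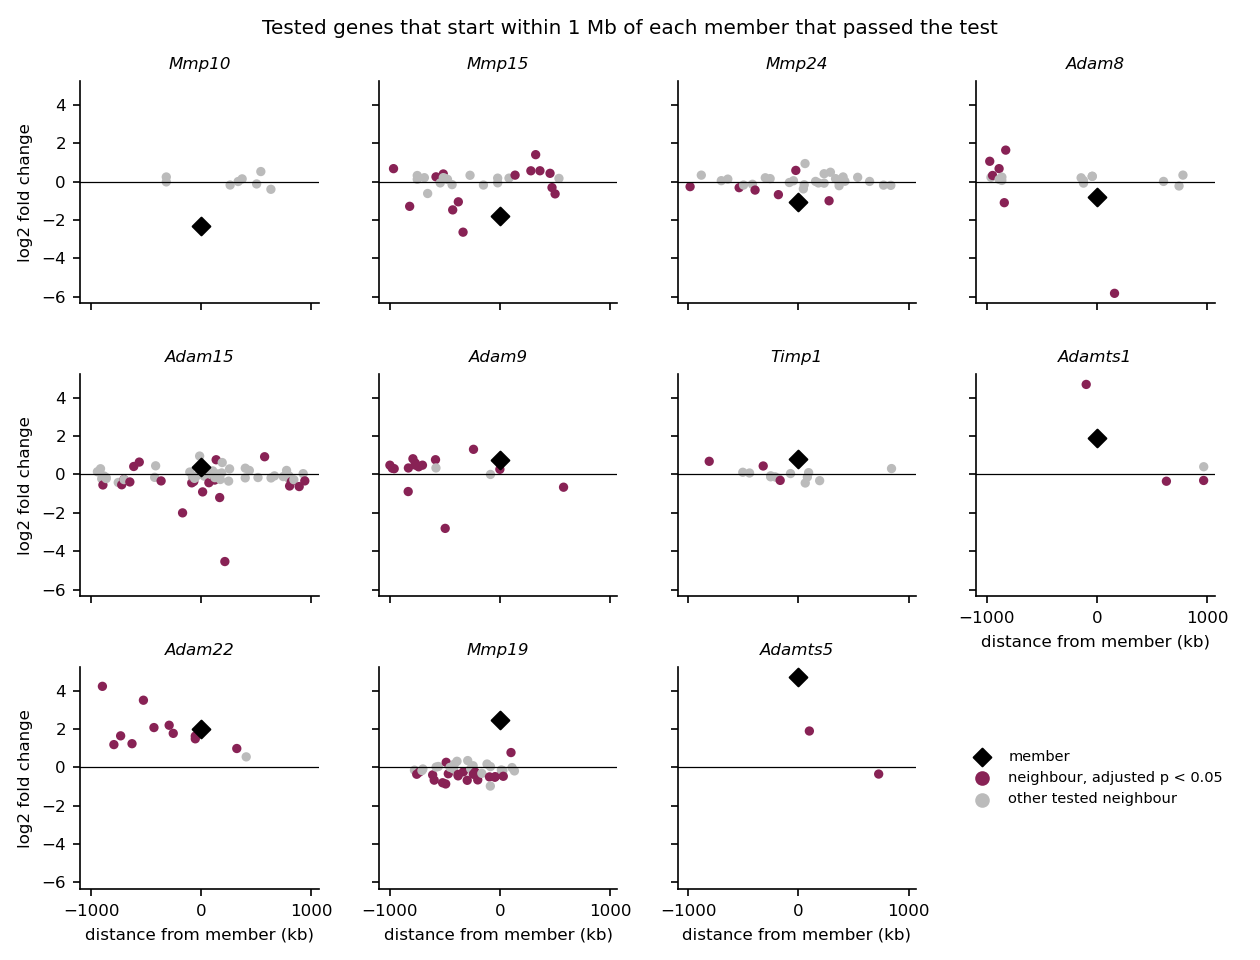
Log2 fold change of MPC-PTX against MPC of each called member (black diamond) and of the tested genes that start within 1 Mb of it, plotted by their distance from the member's start in kb; dark points had an edgeR adjusted p below 0.05. The 12 neighbours of Adam22 all lie above 0, and the tested ones of Mmp10 lie between -0.40 and 0.53 with no dark point among them.

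The proteins that activate or restrain MMPs outside the TIMP family were also counted. Of 18 genes on this list, 12 were tested, 1 rose and 3 fell, with a median log2 fold change of -0.13 against 0.04 over all genes, of which 14.1% rose and 15.6% fell. Plau, urokinase, which starts the plasmin cascade that activates pro-MMPs, had 179, 124 and 110 CPM in MPC and 50.6, 44.8 and 45.9 CPM in MPC-PTX, and fell by 1.55 on the log2 scale (SE 0.18, edgeR adjusted p = 0.00131). Lrp1, the endocytic receptor that clears MMPs and their complexes with TIMPs, had 45.2, 72.6 and 66.9 CPM in MPC and 23.7, 28.4 and 25.0 CPM in MPC-PTX, and fell by 1.26 (SE 0.18, edgeR adjusted p = 0.00262). Both were lower in all MPC-PTX libraries. Bsg, which encodes the MMP inducer basigin, fell by 0.59 on the log2 scale (edgeR adjusted p = 0.0022). Sparc, a matricellular protein that can induce MMPs, rose from 2.07, 1.80 and 1.68 CPM to 4.44, 4.37 and 3.98 CPM (log2 fold change 1.21, edgeR adjusted p = 0.00168). Without MPC replicate 3, 5 genes of this list fell, with 27.1% of all genes lower in that fit, and without MPC replicate 1, 2 rose, with 18.3% higher. Furin, which cuts the membrane-type MMPs and ADAMs into their mature forms, had a log2 fold change of -0.19 (edgeR adjusted p = 0.0908).

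Next came the partners that bring ADAM10 and ADAM17 to the cell surface. Of 9 genes, 8 were tested, 5 fell and none rose, and the median log2 fold change was -0.26, where 15.6% of all tested genes fell and 14.1% rose. Tspan17, one of the tetraspanins that bind ADAM10, had 17.002, 19.7 and 17.7 CPM in MPC and 9.70, 9.74 and 9.51 CPM in MPC-PTX, and fell by 0.91 on the log2 scale (edgeR adjusted p = 0.000683). Of the same tetraspanin group, Tspan15 fell by 0.61, Tspan14 by 0.56 and Tspan5 by 0.21 on the log2 scale. Frmd8, which stabilises the iRhom proteins that carry ADAM17, fell by 0.31. The iRhom genes themselves, Rhbdf1 and Rhbdf2, had log2 fold changes of 0.16 (edgeR adjusted p = 0.206) and 0.23 (edgeR adjusted p = 0.166). None rose by DESeq2 or at an unadjusted p below 0.05 in the main fit either. With the GC and length correction 1 was called higher, where 21.6% of all genes were. At least 1 fit with a library left out also had 1 called higher. The count of genes that fell was 3 with total counts in place of TMM scaling, without MPC replicate 2 and without any 1 of the MPC-PTX libraries, and in the fits with 1 of these libraries left out 9.04% to 10.2% of all genes fell.

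Substrates that ADAM10 and ADAM17 shed moved both ways. Of 26 genes, 22 were tested, 6 rose and 7 fell, with a median log2 fold change of -0.04, beside 14.1% and 15.6% of all tested genes. Ereg, which encodes the EGF receptor ligand epiregulin, had 5.90, 5.98 and 7.64 CPM in MPC and 19.8, 19.97 and 19.9 CPM in MPC-PTX (log2 fold change 1.61, SE 0.12, edgeR adjusted p = 0.000161). Areg, amphiregulin, of the same ligand family, rose by 0.73 (edgeR adjusted p = 0.0183). Alcam, an adhesion molecule, had 83.4, 111 and 164 CPM in MPC and 36.9, 42.4 and 44.0 CPM in MPC-PTX and fell by 1.54 on the log2 scale (SE 0.24, edgeR adjusted p = 0.00408). Tnf had 9.88, 5.26 and 5.81 CPM in MPC and 3.42, 3.29 and 3.03 CPM in MPC-PTX and fell by 1.10 (SE 0.26, edgeR adjusted p = 0.0171). With any 1 of the MPC-PTX libraries left out, 2 to 3 genes of this list rose and 3 to 4 fell, as the share of all genes called went from 29.7% to between 16.0% and 16.2%. The epithelial marker Epcam is also on this list and fell by 0.59 on the log2 scale (edgeR adjusted p = 0.00192).

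Of the AP-1 and ETS factors known to bind Mmp promoters, 14 of 15 were tested, 4 rose and 2 fell, beside 14.1% and 15.6% of all tested genes. All 3 members of the PEA3 group of ETS factors were among those that rose. Etv1 had 1.06, 1.80 and 2.40 CPM in MPC and 5.21, 5.73 and 4.81 CPM in MPC-PTX (log2 fold change 1.57, SE 0.26, edgeR adjusted p = 0.00463). Etv5 rose by 0.89 (edgeR adjusted p = 0.00347) and Etv4 by 0.56 (edgeR adjusted p = 0.042). The AP-1 gene Fosl2 rose by 0.37, and the ETS genes Elf3 and Ets2 fell by 0.80 and 0.63 on the log2 scale. Without MPC replicate 1, 9 genes of this list rose, with 18.3% of all genes higher in that fit. The AP-1 genes Fosl1 and Fosb had log2 fold changes of 0.77 (edgeR adjusted p = 0.132) and 0.91 (edgeR adjusted p = 0.0989).

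Related proteases and ADAMTS-like proteins, which share the ancillary domains of ADAMTSs but have no protease domain, gave few tested genes. Bmp1, the procollagen C-proteinase, had 90.9, 85.8 and 81.4 CPM in MPC and 57.0, 55.6 and 60.8 CPM in MPC-PTX, and fell by 0.57 on the log2 scale (edgeR adjusted p = 0.00155). Pappa2, a protease of IGF-binding proteins, rose from 0.744, 0.722 and 0.721 CPM to 1.28, 1.31 and 1.96 CPM (log2 fold change 1.03, edgeR adjusted p = 0.0267), and it was not called by DESeq2, without MPC replicate 2 or without any 1 of the MPC-PTX libraries. Of 8 other metzincins these were the 2 tested. Adamtsl5 rose from 4.99, 3.51 and 3.46 CPM to 13.0, 10.96 and 10.3 CPM (log2 fold change 1.53, SE 0.18, edgeR adjusted p = 0.00101), while Adamtsl4 fell by 0.84 on the log2 scale (edgeR adjusted p = 0.00246).

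**Figure D5:**
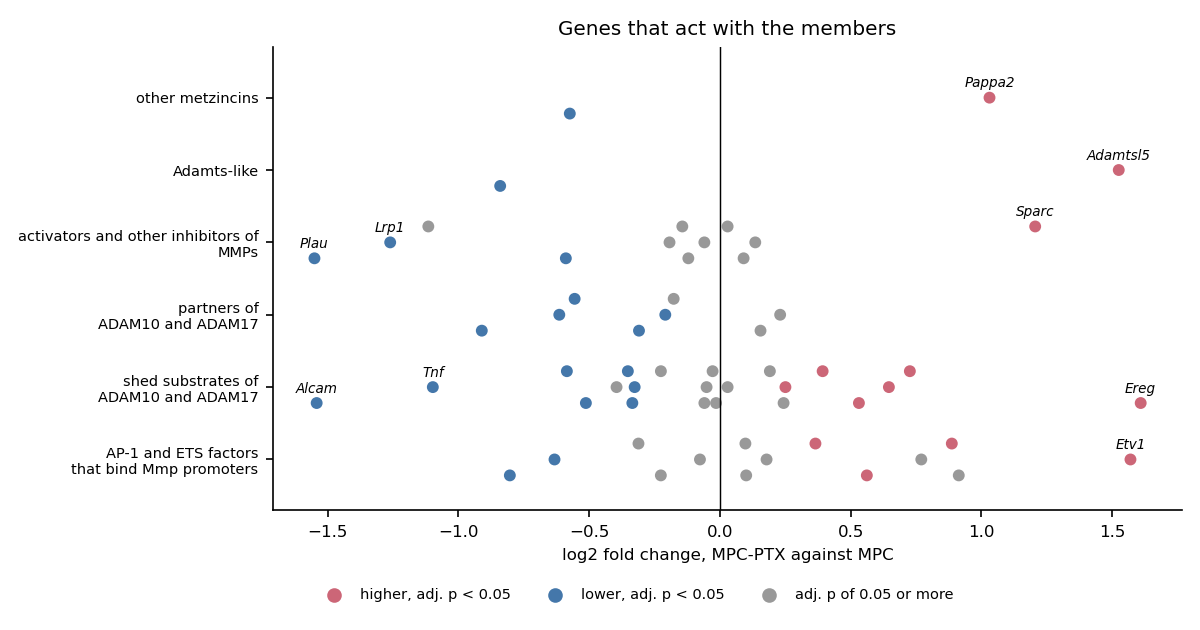
Log2 fold change of MPC-PTX against MPC for the tested genes of 6 lists of genes that act with the members, 1 point per gene; red and blue points were higher and lower in MPC-PTX at an edgeR adjusted p below 0.05. The partners of ADAM10 and ADAM17 have 5 blue and no red points, while the shed substrates have 6 red and 7 blue ones, and genes with a called change above 1 are named.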

How the data were processed

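RNA of 3 MPC and 3 MPC-PTX libraries was poly-A selected and sequenced by the authors, who trimmed with fastp 0.22.0, aligned with HISAT2 and deposited raw counts per gene, neither normalized nor pooled. The genome build, annotation, counting tool and use of strand are not given in the sources used here. The 6 sample files held the same values as the series table.

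From the deposited counts, libraries of 16574580 to 23148182 counts were scaled with TMM, filterByExpr with the line as group and a minimum of 10 counts kept 11795 genes, and edgeR 4.0.16 in R 4.3.3 tested them (robust glmQLFit, then glmQLFTest), with Benjamini-Hochberg adjustment. The 4 lists of marker genes and the 6 lists of related genes were only counted. CPM use library sizes scaled by TMM, and log2 CPM, used to check the pairing of replicate numbers and for the GC correction, a prior count of 2. Fold changes are the fitted ones of edgeR. The smallest p of an exact two-sided permutation test is 0.1 for 3 against 3 libraries. Intervals cover only counting error, and a ratio with 3 counts in place of 0 covers only that of the 0. PCR copies without identifiers are not separate molecules.

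Positions and exon lengths were looked up in GENCODE M21 (GRCm38) by Ensembl identifier, for all 80 members and 11776 of 11795 tested genes. The build of the counts may differ, so these positions are those of GRCm38 and not of the authors' files. Start regions came from RefSeq.

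Genes were named by rule: members with an adjusted p below 0.05, members with at least 10 CPM in either line, Mmp2, Mmp7, Mmp9, Mmp14, Adam10, Adam17 and the Timp genes, untested members with at least 10 counts in a library, and genes of the other lists that passed both this p and a log2 fold change beyond 1 in size, up to 4 in each direction per list. Other genes that are named with a value were chosen after their values were seen. Members, lists and tests were chosen with earlier results of these data known. Libraries were not treated as paired by replicate number. Deviations of same-numbered libraries correlated at 0.15, -0.02 and 0.17, and those of differently numbered ones at -0.23 to 0.15. With so few libraries, and deviations taken from each line's own mean, this cannot exclude pairing.

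Alternatives were DESeq2 1.42.0, DESeq2's size factors or total counts in place of TMM, no filter, at least 10 counts in every library, the replicate number as a block and each library left out in turn. A correction for GC content and exon length (loess, span 0.3) was added after the data were seen. Some items are not reported here.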

Additional observations from a re-analysis of the deposited data

How the results depend on the processing

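Mmp10, Mmp15, Adam8, Adam22, Timp1, Adamts1 and Adamts5 passed the test in every setting in which they were fitted, and of these Mmp10 and Adamts5 could not be fitted with at least 10 counts in every library. Of the values of single members under an alternative, 194 kept direction and call, 10 came to pass the test, 11 no longer passed and 3 reversed. Adam10 went to -0.11 and Adam17 to -0.041 without MPC replicate 1, and Adam17 to -0.014 with the GC and length correction. Without MPC replicate 3 their values were 0.35 and 0.19. Mmp14 passed with total counts (edgeR adjusted p = 0.0334), with the GC and length correction (0.0472) and without MPC replicate 3 (0.0445), and Mmp11 passed with DESeq2 (adjusted p = 0.0372), with its size factors (0.0449) and without MPC replicate 3 (0.00721). Mmp24 did not pass without MPC replicate 2 (0.0567). By fold and unadjusted p, 8 members were higher and 6 lower with no filter, against 5 and 3, and 2 were higher with at least 10 counts in every library, where fewer members could be tested. The share of all genes by this rule was taken in the main fit only, at 8.11%. Mmp genes called higher were 2 with total counts, 2 with the GC and length correction and 0 with at least 10 counts in every library, against 1, and Adamts genes called higher were 1 with that filter, against 2. The other metzincins had 0 called higher with DESeq2, against 1. Partners of ADAM10 and ADAM17 had 1 called higher with the GC and length correction, against 0, and 3 called lower with total counts, against 5. Among all genes, the share called higher by adjusted p was 14.1% in the main fit and 12.3% with DESeq2. It was 16.9% with total counts, 21.6% with the GC and length correction and 11.3% with at least 10 counts in every library. The share called lower was 13.7% with total counts, against 15.6%. The cause of these shifts was not tested. With the replicate number as a block, 7 members were higher and 4 lower, the same counts as without it, the share of all genes called was 29.7% in both fits, and it moved no count by over 1.5 times.

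When 1 library at a time was left out, members called higher ranged from 4 (without MPC-PTX replicate 2 or 3) to 11 (without MPC replicate 3), and the share of all genes called from 16.0% to 52.5%. In the same way, Mmp genes called higher ranged from 0 to 2, Timp genes called lower from 0 to 1 and Adam genes called higher from 1 to 5. Members higher by fold and unadjusted p ranged from 4 to 5 and lower from 2 to 3, and the share of all genes by this rule was not taken in these fits. The other metzincins called higher ranged from 0 to 1, activators and other inhibitors called higher from 1 to 2 and lower from 3 to 5, partners of ADAM10 and ADAM17 called higher from 0 to 1 and lower from 3 to 5, shed substrates called higher from 2 to 7 and lower from 3 to 8, and AP-1 and ETS factors called higher from 3 (4 settings) to 9 (without MPC replicate 1). Leaving out a library leaves 2 in its line, and depth limits members under about 10 counts per library, for which only large differences could be seen.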
